A study of Mus musculus with 8 samples.

Results

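The genes described here encode Wnt ligands, Frizzled receptors and the proteins that help or restrain them. They were taken by name from the mouse annotation: all genes called Wnt, Fzd, Dkk (with Dkkl1) or Sfrp followed by a number, Rspo1 to Rspo4, Lgr4 to Lgr6, Axin1, Axin2, Nkd1, Nkd2, the Tcf7 genes, Lef1, Lrp5, Lrp6, Apcdd1, Tspan12, Adgra2, Reck, Notum, Rnf43, Znrf3 and Wif1. This gave 63 of the 35852 genes in the count table, by a rule on gene names, written with earlier results of these data known. RNA was sequenced from bEnd3 cells, an established line of mouse brain endothelial cells grown in DMEM with fetal calf serum. By their titles and treatment field, 4 libraries come from bEnd3 cells exposed for 24 h to corticosterone at 5 µM, and 4 come from bEnd3 cells kept in culture medium. The labels name no vehicle for the medium cells, whose treatment protocol also mentions corticosterone. Whether replicates were grown separately is not given in the labels, and the p-values reflect sample-to-sample spread that may be technical.

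Wnt proteins are secreted lipid-modified ligands that bind Frizzled receptors on the cell surface. Together with the co-receptors Lrp5 and Lrp6 they stop a cytoplasmic complex built on Axin from degrading beta-catenin, which then acts with TCF and LEF factors in the nucleus. In brain endothelium this route is known for building the blood-brain barrier: neural Wnt7a and Wnt7b signal through Adgra2 and Reck, and the unrelated ligand Norrin signals through Fzd4, Lrp5 and Tspan12. Corticosterone, the main glucocorticoid of mice, acts through the glucocorticoid receptor.

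Libraries held 27699200 to 33193000 estimated counts with corticosterone and 19746300 to 46206900 in medium. All 12 endothelial markers examined were measured, with summed levels of 9335 to 9649 CPM (read counts scaled to the TMM-adjusted library size) in the corticosterone libraries and 8662 to 9206 CPM in the medium libraries. Of these 12, 6 rose and 4 fell, against 19.5% higher and 20.6% lower of all genes tested. Of 10 fibroblast markers, 4 were tested and 3 of these fell (Pdgfra, Col1a1 and Fbln1), with summed levels of 7.46 to 8.64 CPM with corticosterone and 22.9 to 25.1 CPM in medium, and no marker at 0 in all libraries. Of 12 pericyte and smooth muscle markers, 6 were tested; Mylk rose and Acta2 and Pdgfrb fell. The summed pericyte and smooth muscle level was 193.5 to 199 CPM with corticosterone and 157 to 171 CPM in medium. The Acta2 call ended without medium replicate 4 (adjusted p = 0.0634) and the Pdgfrb call ended in 6 of the 8 fits that left out 1 library (highest adjusted p = 0.125). Of 7 astrocyte, 8 neuron and oligodendrocyte, 8 microglia and macrophage and 6 epithelial markers, 2, 2, 1 and 0 were tested, and only Gja1 and Tubb3 passed, both higher. Of these lists, Aqp4, Syt1, Olig2, P2ry12 and Cldn4 had 0 counts in all libraries. The part of these other cell types in the results below was not tested, and in bulk RNA fewer cells of a type and less RNA per cell cannot be told apart.

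Promoter sequences of 5 called members are shown, chosen after their values were seen, because the members moved in different directions: Fzd4, Fzd9 and Wnt9b were higher with corticosterone, and Lgr6 and Dkk2 were lower. The promoter of Wnt5a was not used here. Each is the 250 bases before the RefSeq start on GRCm38.p6, written 5′ to 3′ on the strand of the gene, at chr7:89404116-89404365 (plus strand) for Fzd4, chr5:135251048-135251297 (minus) for Fzd9, chr11:103749822-103750071 (minus) for Wnt9b, chr1:135105277-135105526 (minus) for Lgr6 and chr3:132085042-132085291 (plus) for Dkk2. In the GENCODE annotation Fzd9 starts at 135251230 and Fzd4 at 89404355. By those starts, most of the Fzd9 window and the last bases of the Fzd4 window lie inside the gene. Capitals mark AGAACA (1 arm of the palindromic element of the glucocorticoid receptor, called the receptor letters here), the TCF/LEF letters CTTTGAT and the TATA letters TATAAA on either strand.
Fzd4: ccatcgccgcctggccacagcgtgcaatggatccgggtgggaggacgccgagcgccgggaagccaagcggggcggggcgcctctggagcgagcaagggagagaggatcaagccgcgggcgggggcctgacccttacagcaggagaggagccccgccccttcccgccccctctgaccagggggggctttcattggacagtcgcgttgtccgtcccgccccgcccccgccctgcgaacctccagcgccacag
Fzd9: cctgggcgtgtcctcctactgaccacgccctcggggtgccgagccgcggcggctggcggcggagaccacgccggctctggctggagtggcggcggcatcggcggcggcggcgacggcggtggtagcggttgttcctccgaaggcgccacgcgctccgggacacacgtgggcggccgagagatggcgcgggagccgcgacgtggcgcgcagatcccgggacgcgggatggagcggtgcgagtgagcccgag
Wnt9b: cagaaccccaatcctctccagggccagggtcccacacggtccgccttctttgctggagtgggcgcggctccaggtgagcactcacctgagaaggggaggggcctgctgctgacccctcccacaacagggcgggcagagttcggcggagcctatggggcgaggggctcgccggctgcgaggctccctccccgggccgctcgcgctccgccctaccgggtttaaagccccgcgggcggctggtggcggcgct
Lgr6: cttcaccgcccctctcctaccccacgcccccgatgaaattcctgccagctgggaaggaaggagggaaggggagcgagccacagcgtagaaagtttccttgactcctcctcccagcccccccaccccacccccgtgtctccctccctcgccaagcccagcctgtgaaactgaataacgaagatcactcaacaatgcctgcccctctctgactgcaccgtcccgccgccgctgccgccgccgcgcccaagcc
Dkk2: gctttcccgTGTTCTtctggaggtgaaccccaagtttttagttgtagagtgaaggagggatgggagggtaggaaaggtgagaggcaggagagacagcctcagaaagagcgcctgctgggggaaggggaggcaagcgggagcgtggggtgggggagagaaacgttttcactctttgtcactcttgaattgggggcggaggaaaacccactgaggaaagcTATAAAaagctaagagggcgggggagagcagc

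Of these 5 windows the one of Dkk2 held capitals, the receptor letters on the other strand and the TATA letters. The receptor letters were present in 16.1% of all 32851 RefSeq windows of this length, the TCF/LEF letters in 3.21% and the TATA letters in 12.4%. Windows were listed for 17 of the tested members, 21 in all. Among these 21 windows, 3 held the receptor letters (Dkk2, Tcf7l2, Wnt5b), 0 held the core of the full glucocorticoid response element, which 0.387% of all windows held, 1 held the TCF/LEF letters (Wnt5b) and 4 held the TATA letters (Dkk2, Tcf7, Tcf7l2, Tspan12). The median GC content was 68.4% in the 21 windows and 52.4% in all windows. A match describes letters in a window and not binding.

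The comparison sets RNA levels in the cells given corticosterone beside those in the cells kept in medium. As no vehicle is named, the hormone and any solvent given with it cannot be told apart. Of the 63 genes, 27 had enough reads to be tested with edgeR across all 13272 tested genes, and 36 did not. At a Benjamini-Hochberg adjusted p under 0.05, 20 of the 27 passed, 11 higher and 9 lower with corticosterone. Over all tested genes 40.1% passed, 19.5% higher and 20.6% lower. Every library of one group lay beyond every library of the other for 19 of the 27 members, against 39.9% of all tested genes. The members' median log2 fold change was -0.04 and their median absolute log2 fold change 0.34, against -0.0046 and 0.14 for all tested genes. Wnt9b passed the filter on low counts through its corticosterone libraries alone, so it could only differ.

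Corticosterone replicates 1 and 2 carry effective lengths of another kind. With both left out, 19 of 28 tested members passed, 11 higher and 8 lower, against 36.4%, 18.4% and 18.0% of all genes tested. Fits on TPM, which change the scale, the test and the filter together, gave fewer calls. With limma on TPM recomputed with 1 effective length per transcript, 301 genes were higher and 676 lower, so 30.8% of calls were higher against 48.6% with edgeR. There 7 of 22 tested members passed, against 7.61% of all genes tested. On the deposited TPM of the 6 libraries 9 of 22 tested members passed, against 21.7% of all genes tested. All 9 were also called by edgeR with the same sign. The members called on counts but not on that scale were Fzd2, Fzd6, Lgr4, Znrf3, Tcf7l1, Tspan12, Reck, Adgra2 and Axin1, beside Wnt9b and Tcf7, which were too low to be tested there.

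**Figure D1:**
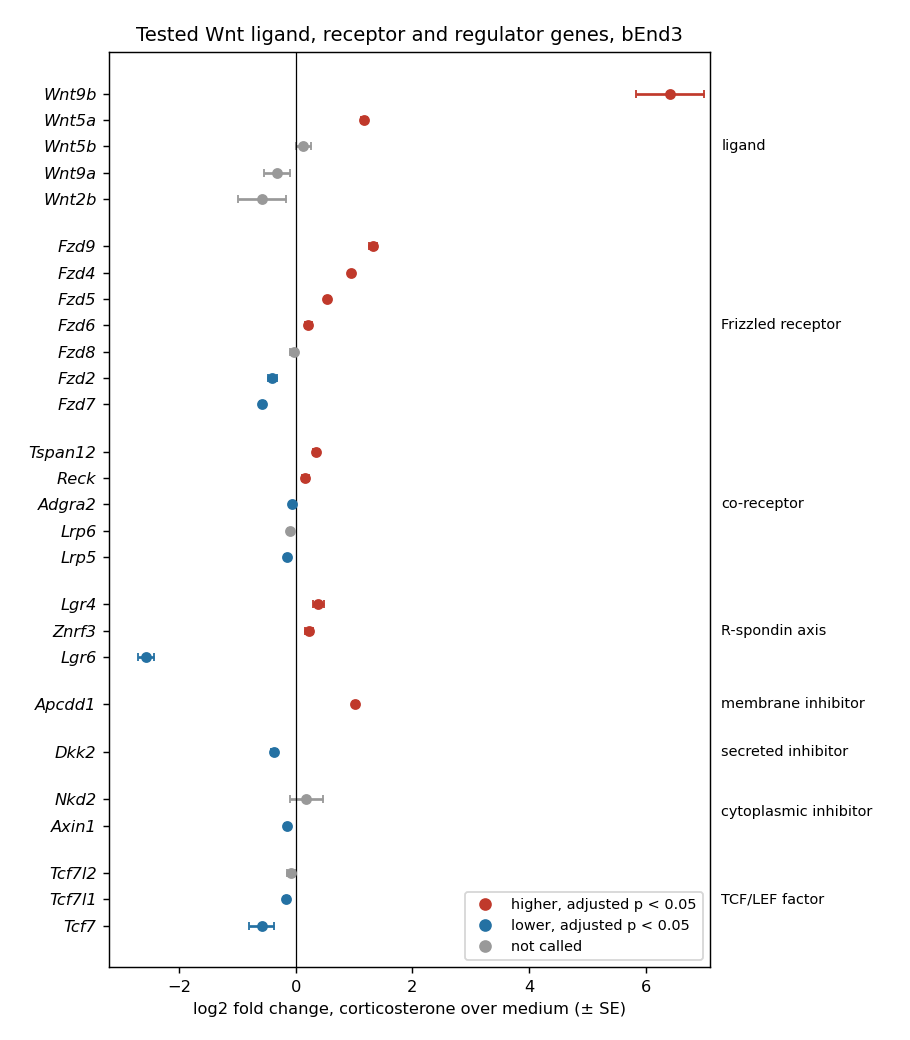
Log2 fold changes of the 27 tested genes, corticosterone over medium, grouped by role, with 1 SE of the fit as the bar. Wnt9b stands at 6.41 and Lgr6 at -2.57, while 20 genes passed the test, 11 higher and 9 lower.

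Of the ligands, Wnt5a and Wnt9b rose, and the other 3 tested did not pass; 14 of the 19 ligand genes had too few counts to be tested. Wnt5a, a ligand best known for beta-catenin-independent signalling, was the most abundant ligand in both groups. Wnt5a (ENSMUSG00000021994.15, GRCm38 chromosome 14, 28504750 to 28527448, plus strand) had 47.8, 48.2, 49.1 and 46.4 CPM with corticosterone, against 21.8, 21.6, 18.8 and 22.9 CPM in medium. All corticosterone libraries were more than 20 CPM above the medium libraries. Its level was 2.25-fold that in medium, a log2 fold change of 1.17 ± 0.054 (SE, edgeR adjusted p = 3.82e-09).

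Per length, Wnt5a made up 75.6% to 77.6% of the summed TPM of all ligands in corticosterone replicates 3 and 4, against 60.4% to 71.2% in the medium libraries. TPM is a level per length that sums to the same total in each library, and it is given for the 6 libraries that share 1 kind of effective length. Reads were assigned to several Wnt5a transcripts: Wnt5a-201 held 51.0% to 64.0% of the gene's estimated counts with corticosterone and 49.3% to 55.8% in medium, ranges that overlap. Transcript shares may depend on the effective lengths, which are of another kind in corticosterone replicates 1 and 2.

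Wnt9b, a ligand known from kidney development, was close to absent in medium. Wnt9b (ENSMUSG00000018486.2, chromosome 11, 103727364 to 103749821, minus strand) had 1.14, 0.997, 0.850 and 1.23 CPM with corticosterone, against 0, 0, 0.0502 and 0 CPM in medium. All corticosterone libraries held reads, and of the medium libraries replicate 3 alone did, with 1 count. The totals were 125 counts and 1 count, a scaled ratio of 129 (95% exact binomial interval 22.7 to 5128, counting error only). The edgeR adjusted p was 2.09e-06, but Wnt9b passed the filter through its corticosterone libraries alone, so this p is no independent support for the rise. The fold fitted by edgeR was 85.2, a log2 fold change of 6.41, which depends on the prior count, and without medium replicate 3, which holds the 1 count, the log2 fold change was 8.07. Even so, the level with corticosterone, 1.05 ± 0.166 CPM (SD, n = 4), was low, and by length Wnt9b took 1.28% to 1.89% of the summed ligand TPM.

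Wnt5b, a close relative of Wnt5a, had 4.34, 4.17, 4.43 and 4.91 CPM with corticosterone and 4.11, 4.97, 3.72 and 3.48 CPM in medium. These ranges overlap (edgeR adjusted p = 0.432). Wnt9a had 2.12, 1.44, 2.03 and 1.34 CPM with corticosterone and 1.57, 2.47, 2.81 and 1.95 CPM in medium, which also overlap (adjusted p = 0.274). Wnt2b averaged 0.400 ± 0.197 CPM with corticosterone and 0.582 ± 0.253 CPM in medium (SD, n = 4 each, edgeR adjusted p = 0.303).

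The ligands through which neural cells signal to brain vessels were at or near the limit of detection in these cells themselves. Wnt7a had 0 counts in all 8 libraries, and Wnt7b had 1 count with corticosterone and 2 in medium. Wnt1 and Wnt10b also had 0 counts in all libraries. Wnt4 had 21 counts with corticosterone and 30 in medium, and Wnt6 had 27 and 23. Wnt11, Wnt16, Wnt3 and Wnt8a had 4 to 10 counts over all libraries, and the other 4 untested ligands (Wnt10a, Wnt2, Wnt3a and Wnt8b) had 1 or 2.

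**Figure D2:**
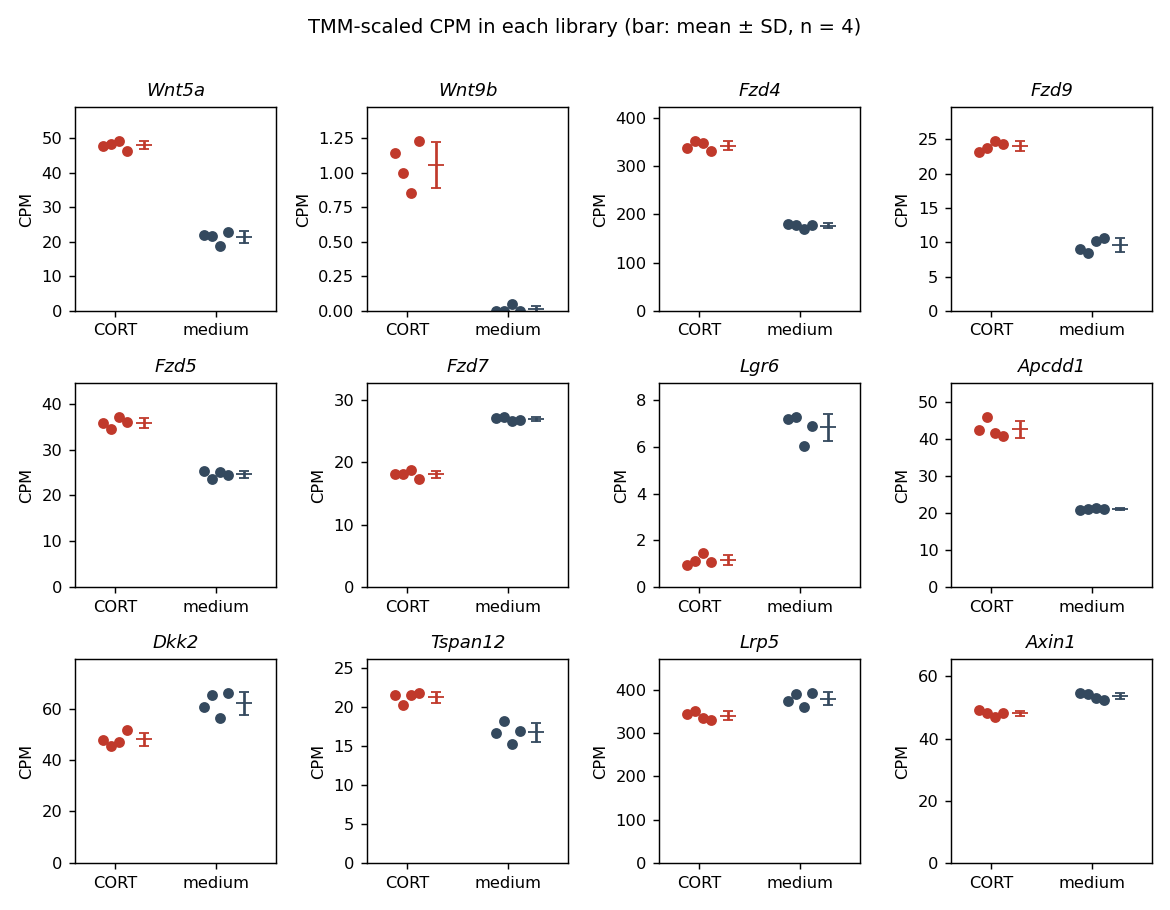
CPM of 12 members in each of the 4 corticosterone (left, CORT) and 4 medium libraries (right), from 0, with mean ± SD beside the points. The 12 are the members with the smallest p, so it follows largely from this choice that the groups do not overlap in any panel. Of all tested genes, 39.9% do not overlap. Separation relative to level is largest for Lgr6 and for Wnt9b, which passed the filter through its corticosterone libraries alone.

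The Frizzled receptors changed in both directions. Of 10 genes, 7 were tested: Fzd4, Fzd5, Fzd6 and Fzd9 rose, Fzd2 and Fzd7 fell, and Fzd8 did not pass. Fzd4, the receptor of Norrin in retinal and brain vessels, had the smallest p of all members. Fzd4 (ENSMUSG00000049791.4, chromosome 7, 89404355 to 89413134, plus strand) had 337, 351, 347 and 331 CPM with corticosterone, against 180.3, 178, 168 and 178 CPM in medium. The lowest corticosterone library lay far above the highest medium library. The log2 fold change was 0.95 ± 0.029 (SE, edgeR adjusted p = 8.6e-11).

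Fzd9 had the largest fold change of the receptors. Fzd9 (ENSMUSG00000049551.2, chromosome 5, 135248938 to 135251230, minus strand) had 23.1, 23.7, 24.8 and 24.3 CPM with corticosterone, against 9.01, 8.43, 10.2 and 10.6 CPM in medium, a 2.51-fold level (log2 fold change 1.33 ± 0.069, edgeR adjusted p = 1.14e-08). Fzd5 (ENSMUSG00000045005.9, chromosome 1, 64730558 to 64737751, minus strand) had 35.7, 34.5, 37.1 and 36.1 CPM with corticosterone, against 25.3, 23.6, 25.02 and 24.5 CPM in medium, 1.46-fold (edgeR adjusted p = 3.35e-07). The groups were apart for both genes. An unclassified gene on the other strand shares 17.8% of the exon bases of Fzd5, and the strand setting of the quantification is not given in the sources used here.

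Fzd7 moved the other way. Fzd7 (ENSMUSG00000041075.8, chromosome 1, 59482424 to 59486955, plus strand) had 18.0, 18.2, 18.7 and 17.3 CPM with corticosterone, against 27.2, 27.2, 26.6 and 26.7 CPM in medium, a ratio of 0.671 (edgeR adjusted p = 1.8e-07). All 4 corticosterone libraries were below all medium libraries. Fzd2, closely related in sequence to Fzd7, averaged 7.31 ± 0.761 CPM with corticosterone and 9.65 ± 0.505 CPM in medium (ratio 0.757, edgeR adjusted p = 0.00204).

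Fzd6 averaged 40.0 ± 2.91 CPM with corticosterone and 34.5 ± 2.57 CPM in medium (1.16-fold, edgeR adjusted p = 0.0183). That call ended with the replicate number as a block (adjusted p = 0.0972). Fzd8 averaged 14.9 ± 0.873 CPM with corticosterone and 15.3 ± 0.848 CPM in medium, with overlapping groups (edgeR adjusted p = 0.638). Fzd1 had 7 counts with corticosterone and 13 in medium, Fzd3 had 7 and 8, and Fzd10 had 0 in all libraries.

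Per length, Fzd4 was the most abundant Frizzled mRNA, at 69.6 ± 2.96 TPM with corticosterone (SD, n = 2) and 37.0 ± 1.49 TPM in medium (SD, n = 4). In medium, Fzd6 followed at 13.1 ± 0.928, then Fzd7 at 8.60 ± 0.178, Fzd9 at 6.57 ± 0.661, Fzd5 at 5.50 ± 0.318, Fzd2 at 3.89 ± 0.167 and Fzd8 at 3.63 ± 0.229 TPM. Fzd2 and Fzd8 differed there by about their spread. With corticosterone, Fzd9 (16.5 ± 0.285 TPM) and Fzd6 (15.6 ± 0.891 TPM) stood next to each other within about 1 SD, and Fzd5 at 8.11 ± 0.738 TPM was above Fzd7 at 5.64 ± 0.344 TPM. The share of Fzd4 in the summed Frizzled TPM was 57.0% to 57.1% with corticosterone and 46.3% to 47.6% in medium. The share of Fzd7 was 4.55% to 4.68% with corticosterone and 10.8% to 11.1% in medium, and that of Fzd9 was 13.3% to 13.8% with corticosterone and 7.42% to 9.21% in medium. The summed Frizzled TPM was 119 and 126 in the 2 corticosterone libraries and 75.4 to 80.8 in the 4 medium libraries.

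**Figure D3:**
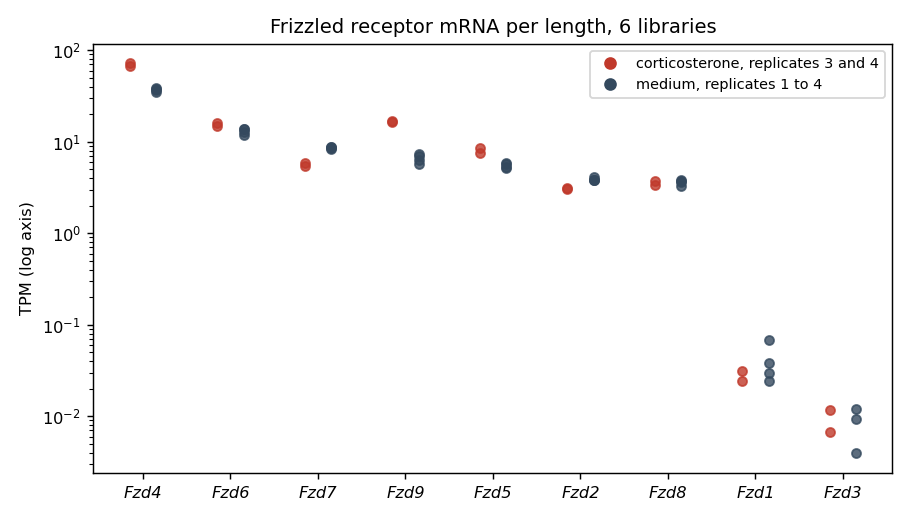
TPM of the Frizzled genes (log axis) in corticosterone replicates 3 and 4 (left of each pair) and medium replicates 1 to 4 (right), ordered by the medium mean; libraries at 0 are not drawn. Fzd4 is highest in both groups, Fzd9 lies above Fzd7 with corticosterone and below it in medium, and Fzd1 and Fzd3 are near 0.

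All 5 co-receptor genes were tested: Tspan12 and Reck rose, Lrp5 and Adgra2 fell, and Lrp6 did not pass. In CPM, which is not corrected for length, Lrp5, Adgra2 and Lrp6 had the highest levels. Per length, Tspan12 was above Lrp6 with corticosterone (22.5 ± 1.38 against 19.2 ± 0.388 TPM, SD, n = 2). In medium the mean of Tspan12 was below that of Lrp6 (16.4 ± 3.74 against 20.3 ± 0.403 TPM, SD, n = 4). Tspan12, a tetraspanin that aids Norrin signalling through Fzd4, had 21.5, 20.2, 21.5 and 21.8 CPM with corticosterone, against 16.7, 18.1, 15.2 and 16.9 CPM in medium (ENSMUSG00000029669.14, chromosome 6, 21771395 to 21852515, minus strand). In CPM the groups did not overlap, and the log2 fold change was 0.34 ± 0.055 (SE, edgeR adjusted p = 0.000292). On the deposited TPM of the 6 libraries they overlapped, at 21.5 and 23.5 with corticosterone and 13.5 to 21.8 in medium. Tspan12 did not pass there (limma adjusted p = 0.123). Lrp5, the co-receptor of the same complex, had 345, 352, 336 and 330.1 CPM with corticosterone, against 375, 391, 361 and 393 CPM in medium (ENSMUSG00000024913.16, chromosome 19, 3584828 to 3686564, minus strand). Its groups were apart in CPM, with a ratio of 0.897 (edgeR adjusted p = 0.00158).

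Lrp6 averaged 102 ± 3.14 CPM with corticosterone and 108 ± 4.99 CPM in medium (edgeR adjusted p = 0.0513), and it passed, lower, without corticosterone replicate 1 (adjusted p = 0.0228), without medium replicate 3 (0.00642) and in the 6 libraries (0.0413). Adgra2 (also known as Gpr124) and Reck form the receptor complex for Wnt7a and Wnt7b. Adgra2 averaged 369 ± 6.33 CPM with corticosterone and 385 ± 3.90 CPM in medium, a ratio of 0.959 (edgeR adjusted p = 0.0454). Reck averaged 16.3 ± 0.900 CPM with corticosterone and 14.6 ± 0.830 CPM in medium (1.12-fold, edgeR adjusted p = 0.040), with 15.7 CPM in both its lowest corticosterone and its highest medium library. Both calls were fragile: of the 8 fits that left out 1 library, Adgra2 passed in 1 and Reck in 3.

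Lgr4, Lgr5 and Lgr6 bind R-spondins, secreted proteins that raise Wnt signalling by removing the Frizzled-degrading ligases Rnf43 and Znrf3 from the cell surface. Lgr6 had the largest fall among the 27 tested members. Lgr6 (ENSMUSG00000042793.13, chromosome 1, 134983301 to 135105276, minus strand) had 0.9496, 1.11, 1.46 and 1.08 CPM with corticosterone, against 7.21, 7.29, 6.03 and 6.90 CPM in medium. Every corticosterone library was below every medium library, and the ratio was 0.168 (log2 fold change -2.57 ± 0.14, edgeR adjusted p = 1.73e-08).

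Lgr4 and Znrf3 rose. Lgr4 averaged 8.45 ± 0.796 CPM with corticosterone and 6.45 ± 0.450 CPM in medium (1.31-fold, edgeR adjusted p = 0.00323). Znrf3, a ligase whose gene is itself a known beta-catenin target, averaged 12.04 ± 0.933 CPM with corticosterone and 10.3 ± 0.0771 CPM in medium (1.17-fold, edgeR adjusted p = 0.0126). Rnf43, Rspo1 and Rspo4 had 0 counts in all libraries. Lgr5 had 16 counts with corticosterone and 19 in medium, of which 10 and 14 came from 1 library in each group. Rspo2 had 6 and 6, and Rspo3 had 19 and 9.

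Inhibitors at the cell surface and outside it differed in direction. Apcdd1, a membrane protein that binds Wnt ligands and Lrp5, rose. Apcdd1 (ENSMUSG00000071847.13, chromosome 18, 62922231 to 62961179, plus strand) had 42.4, 45.95, 41.6 and 40.8 CPM with corticosterone, against 20.8, 21.1, 21.3 and 21.2 CPM in medium. The medium libraries lay within 1 CPM of each other, and all corticosterone libraries were far above them (log2 fold change 1.02 ± 0.043, edgeR adjusted p = 1.76e-09).

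Dkk2, a secreted protein that binds Lrp5 and Lrp6, fell, and it was the single secreted inhibitor tested of 11. Dkk2 (ENSMUSG00000028031.6, chromosome 3, 132085292 to 132180304, plus strand) had 47.9, 45.4, 47.2 and 51.6 CPM with corticosterone, against 60.7, 65.1, 56.2 and 66.05 CPM in medium. The groups did not overlap, with a ratio of 0.774 (edgeR adjusted p = 0.000284). Notum, an enzyme that removes the lipid of Wnt proteins, had 44 counts with corticosterone and 46 in medium, and 67.0% of its 31-base words are unique to it. Sfrp4, which encodes a secreted Frizzled-related protein, had 1 count with corticosterone and 4, 2, 1 and 4 in the medium libraries, 11 in all. Its scaled ratio was 0.0937 (95% exact binomial interval 0.00218 to 0.645, counting error only), and it did not pass in an edgeR fit without a filter (adjusted p = 0.0888). Dkk3 had 4 counts with corticosterone and 12 in medium, Sfrp1 had 5 and 1, and Sfrp5 had 3 and 1. Dkk1, Dkk4, Dkkl1 and Sfrp2 had 1 or 2 counts in all, and Wif1 had 0.

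Inside the cell, Axin1, the scaffold of the complex that degrades beta-catenin, fell. Axin1 (ENSMUSG00000024182.16, chromosome 17, 26138688 to 26195811, plus strand) had 49.1, 48.1, 47.1 and 48.1 CPM with corticosterone, against 54.7, 54.4, 53.2 and 52.4 CPM in medium. In CPM the groups were apart by a small margin (ratio 0.896, edgeR adjusted p = 0.000745). On the deposited TPM of the 6 libraries they overlapped, at 20.7 and 24.9 with corticosterone and 22.4 to 24.1 in medium. Axin1 did not pass there (limma adjusted p = 0.731). Axin2, the feedback inhibitor that is the most widely used readout of beta-catenin activity, was nearly silent, with 6, 3, 7 and 4 counts with corticosterone and 2, 0, 2 and 2 in medium. In CPM its groups did not overlap, and the scaled ratio of the summed 20 and 6 counts was 3.44 (95% exact binomial interval 1.33 to 10.5, counting error only), but it did not pass in an edgeR fit without a filter (adjusted p = 0.166). Nkd1, another feedback inhibitor, had 8 counts with corticosterone and 1 in medium, and Nkd2 averaged 0.532 ± 0.0940 CPM with corticosterone and 0.471 ± 0.0889 CPM in medium (edgeR adjusted p = 0.646).

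Among the nuclear factors, Tcf7l1 and Tcf7 fell and Tcf7l2 did not pass. Tcf7l1, mostly a repressor of Wnt targets, averaged 33.0 ± 0.540 CPM with corticosterone and 36.9 ± 1.87 CPM in medium (ratio 0.892, edgeR adjusted p = 0.00682). Tcf7 averaged 1.00 ± 0.233 CPM with corticosterone and 1.52 ± 0.263 CPM in medium (edgeR adjusted p = 0.0483). Its groups overlapped and the call held in 2 of the 8 fits that left out 1 library. Tcf7l2 averaged 17.8 ± 1.77 CPM with corticosterone and 18.9 ± 0.876 CPM in medium (edgeR adjusted p = 0.375). Lef1, whose gene is a target of the pathway in brain vessels, had 23 counts with corticosterone and 19 in medium. Per length, Tcf7l1 was the most abundant of the 4 genes, with 61.4% to 65.5% of their summed TPM with corticosterone and 61.0% to 67.5% in medium.

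None of the 36 members too low to be tested passed in the edgeR fit without a filter, where the lowest adjusted p was 0.0888 and 2 had an unadjusted p under 0.05. Of these 36, 8 had 0 counts in all libraries, 8 had 1 or 2, and 20 had 3 or more, with 90 at most.

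Other genes of the pathway were taken from lists written down with earlier results of these data known. Of 31 genes of the beta-catenin machinery, all were tested, 3 rose, 15 fell and 13 did not pass, against 19.5% higher and 20.6% lower of all genes tested. The median log2 fold change of the list was -0.12. Csnk1e, a kinase that phosphorylates pathway proteins, fell to 0.739 of medium (edgeR adjusted p = 7.28e-07), Cxxc5, a Dishevelled-binding inhibitor, to 0.675 (1.22e-06) and Tle4, a Groucho-type co-repressor, to 0.811 (0.000152). Gsk3b, a kinase of the destruction complex, rose 1.15-fold (3.58e-05), and Cxxc4, at 0.638 ± 0.104 CPM with corticosterone and 0.373 ± 0.0614 CPM in medium, 1.70-fold (0.0420). The Cxxc4 call held in 3 of the 8 fits that left out 1 library. Ctnnb1, the beta-catenin gene itself, averaged 1698 ± 56.8 CPM with corticosterone and 1597 ± 34.6 CPM in medium, 1.06-fold (edgeR adjusted p = 0.0183). That call ended in the 6 libraries (adjusted p = 0.180) and with scaling by library size alone (0.0562). It also ended without corticosterone replicate 2 (0.0647) and without medium replicate 3 (0.0517). In the 6 libraries, and also without medium replicate 3, 1 gene of the list was higher.

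Of 19 genes of Wnt secretion and of other surface proteins, 10 were tested, 1 rose and 4 fell, near the 40.1% called among all genes tested (19.5% higher, 20.6% lower). The median of the list was -0.04 on the log2 scale. Gpc6, a glypican, fell to 0.335 of medium (10.7 ± 0.728 CPM with corticosterone and 32.0 ± 1.06 CPM in medium, edgeR adjusted p = 2.57e-10). Ptk7, a co-receptor of the polarity branch, fell to 0.709 (0.00715) and Wls, the carrier that brings Wnt proteins to the surface, to 0.932 (0.00561). Kremen1, a receptor of Dkk proteins, rose 1.09-fold (edgeR adjusted p = 0.0186), and Tmem67, a cilium protein, fell to 0.875 (0.0438). The Kremen1 call ended without corticosterone replicate 3 (adjusted p = 0.0538), and the Tmem67 call held in 3 of the 8 fits that left out 1 library. Ndp, the gene of Norrin, had 16 counts in all libraries and was not tested.

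Of 25 genes of the planar polarity and calcium branch, 23 were tested, 4 rose and 10 fell, against 19.5% higher and 20.6% lower of all genes tested. Its median log2 fold change was -0.13. Daam1, a formin that binds Dishevelled, fell to 0.601 of medium (edgeR adjusted p = 2.36e-10), the kinase gene Prkca to 0.706 (8.22e-07) and Camk2g to 0.875 (3.08e-05). The phospholipase genes Plcb4 and Plcb1 rose 1.47-fold (1.23e-07) and 1.22-fold (0.000112), and the transcription factor gene Nfatc1 1.16-fold (0.00044).

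Of 21 general target genes of beta-catenin outside the members, 12 were tested, 2 rose and 8 fell, against 19.5% higher and 20.6% lower of all genes tested. The median log2 fold change was -0.49. Bmp4, a secreted growth factor, fell to 0.353 of medium (edgeR adjusted p = 1.76e-07), the hyaluronan receptor gene Cd44 to 0.701 (2.67e-07) and Id2, an inhibitor of helix-loop-helix factors, to 0.527 (1.45e-05). Myc rose 1.43-fold (1.42e-07) and the Notch ligand gene Jag1 1.80-fold (1.63e-06). These genes answer to other pathways too.

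Of 20 target and barrier genes of brain endothelium, 14 were tested, 5 rose and 4 fell, against 19.5% higher and 20.6% lower of all genes tested. Here the median log2 fold change was 0.02. Sox17, a transcription factor of arterial and brain endothelium, rose to 229.9 ± 9.84 CPM with corticosterone, against 101 ± 7.89 CPM in medium (2.27-fold, edgeR adjusted p = 1.5e-07), and 84.3% of its 31-base words are unique to it. The claudin gene Cldn5 rose 1.32-fold (1.16e-07) and the efflux pump gene Abcb1b 1.17-fold (0.000327). Sox7 fell to 0.549 of medium (6.41e-11), Sox18 to 0.788 (2.33e-06) and Plvap, a protein of leaky vessels, to 0.806 (5.26e-07). Related factors of the same family thus moved in different directions.

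**Figure D4:**
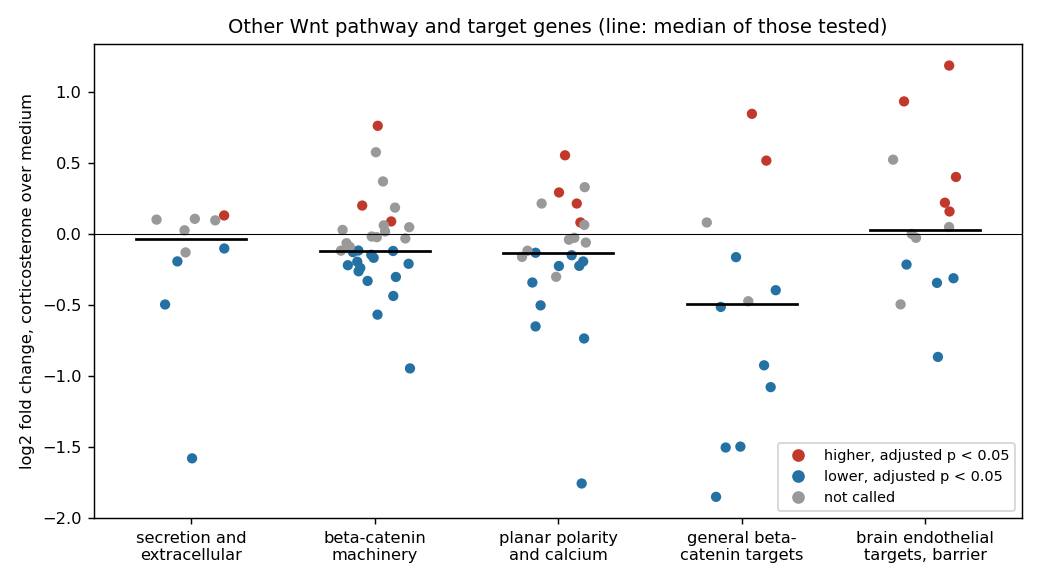
Log2 fold changes, corticosterone over medium, of the tested genes of 5 lists of other Wnt pathway and target genes, with the median of each list as a line. The medians lie between -0.49 for the general beta-catenin targets and 0.02 for the brain endothelial list.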

How the data were processed

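Per the labels, directional libraries of poly(A) RNA were made from 8 samples. They were sequenced and, per the submitters' processing notes, processed with bcl2fastq and kallisto 0.46.1 on mm10/GRCm38. The authors deposited a gene table of estimated counts, not normalized, and per library the estimated counts, TPM and effective lengths (in nucleotides) of 119414 transcripts. In corticosterone replicates 1 and 2 the effective length was the transcript length plus 1, so the deposited TPM was used for the other 6 libraries. Members and lists were chosen with earlier results of these data known. All gene identifiers matched GENCODE M21, whose GRCm38 positions are given.

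Estimated counts were rounded. The model was edgeR 4.0.16 (R 4.3.3): filterByExpr with the group, TMM, robust quasi-likelihood F test of corticosterone against medium, Benjamini-Hochberg adjustment over all tested genes, threshold 0.05. CPM are per TMM-scaled library. The SE is the log2 fold change over the square root of F. Alternatives used RLE or library-size scaling, other filters, the replicate block, fewer libraries, DESeq2 1.42.0 and limma 3.58.1 on log2(TPM + 1) of genes with a mean of at least 1 TPM in a group, whose fold changes understate those of low genes. The fit was also run on simulated counts in which far fewer genes changed than were called here, so that run does not bear on these calls. Full values are given for the 12 members with the smallest p and for ligands of at least 1 CPM, and from each other list the 3 higher and 3 lower calls of smallest p are named, or all calls where there were 5 or fewer. Ndp and Axin2 details were chosen after their values were seen. Scaled ratios with 95% intervals were also computed for Nkd1 (8.24, 1.11 to 366). The same was done for Wnt3, Wnt8a, Wnt11 and Sfrp1, whose intervals include 1.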

Additional observations from a re-analysis of the deposited data

Results flagged for a closer look

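In a search of 68 genes and both groups, 136 groups in all, 1 library stood apart from the other 3 of its group in 7 cases. Chance gives this in about 1 in 20 groups, which is close to the share found. The cases are listed here. Fzd6 had 30.65 CPM in medium replicate 3, against 35.48 to 36.06 CPM in the other medium libraries. Tcf7l2 had 20.16 CPM in medium replicate 1, against 18.26 to 18.54 CPM. Wnt9b had 0.05025 CPM in medium replicate 3, which is 1 count, and 0 in the others. Sox18 had 278.3 CPM in corticosterone replicate 3, against 284.0 to 284.6 CPM in the other corticosterone libraries. Cxxc5 had 25.5 CPM in medium replicate 4, against 25.01 to 25.07 CPM. Corticosterone replicate 4 stood apart for Gsk3b, at 120.5 CPM against 124.1 to 124.5 CPM, and for Prkca, at 36.27 CPM against 34.35 to 34.41 CPM.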

How the results depend on the processing

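With edgeR or DESeq2, all settings kept the counts of called members, of all called genes and of the 5 other pathway and target lists summed within 1.5 times those reported. Single lists with few calls moved by more. The beta-catenin machinery had 1 higher gene, against 3, without medium replicate 3 and in the 6 libraries. The secretion list had 0 to 2 higher genes, against 1, and the pericyte and smooth muscle list 1 to 2 higher and 0 to 2 lower, against 1 and 2. Without 1 library, 10 to 11 members were higher and 7 to 9 lower. The 2 fits on TPM gave fewer calls, and the cause was not tested. On recomputed TPM, where the median log2 fold change of all genes was -0.16, 4 members were higher and 3 lower, 301 genes higher and 676 lower, and 2 other pathway or target genes higher and 15 lower. On deposited TPM of 6 libraries, chosen after seeing the data, these counts were 5 and 4, 1189 and 1552, and 5 and 27. On recomputed TPM the sign turned for Znrf3 (-0.0914), Reck (-0.0750), Wnt5b (-0.0610), Gja1 (-0.0485), Abcb1b (-0.207), Gsk3b (-0.0626), Ctnnb1 (-0.0223), Nfatc1 (-0.0833) and Kremen1 (-0.113), and on deposited TPM for Ctnnb1 (-0.00871). None of these passed there with limma.

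With the replicate block 4913 genes passed, and 9 members were higher and 7 lower; Fzd6, Tcf7, Reck and Adgra2 lost their calls. Same-numbered libraries had correlations of -0.053 to 0.030 of their deviations, so no shared deviation was seen by number. Whether the numbers mark cultures handled together is not given in the labels, and these correlations cannot decide it. At this depth members with a few counts could not be compared.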
